A study of Mus musculus with 42 samples.

Results

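The fatty acid elongases and desaturases described here were 7 genes, Fads1, Fads2, Elovl1, Elovl2, Elovl3, Elovl5 and Scd2, chosen by name from the 54446 genes in the count table. All 7 passed the filter on low counts, which left 15574 genes to test. Counts came from bulk RNA sequencing of the liver of 42 female APOE*3-Leiden mice, with 1 library per mouse. Every mouse carried the APOE*3-Leiden transgene, a variant of a human apolipoprotein gene that slows the clearance of lipoprotein remnants and makes the mice respond to dietary fat and cholesterol. Livers were taken 32 weeks after baseline. The chow group (10 mice) stayed on a maintenance diet as a healthy reference. The WTD group (16 mice) ate a Western-type diet with 15% cocoa butter, 40.5% sucrose and 1% cholesterol, started 3 weeks before baseline at an age of 8 to 14 weeks and supplemented with 0.05% sodium cholate from week 22. The atorvastatin group (16 mice) ate the same diet with atorvastatin, an inhibitor of cholesterol synthesis, mixed in at 3.0 mg/kg/day and from week 5 at 4.5 mg/kg/day. Chow-fed mice were numbered in another series (AZ#) than WTD-fed mice (Gen#), so diet and anything else that differed between those series cannot be told apart.

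Elongases of the ELOVL family carry out the first and rate-limiting reaction of the cycle that lengthens fatty acids in the endoplasmic reticulum, and desaturases insert double bonds. Fads2 and Fads1 encode the desaturases that, with the elongases Elovl5 and Elovl2 acting between and after them, turn the essential fatty acids linoleic and alpha-linolenic acid into arachidonic, eicosapentaenoic and docosahexaenoic acid. Elovl1 and Elovl3 lengthen saturated and monounsaturated very long chains, and Scd2 is a stearoyl-CoA desaturase that makes monounsaturated fatty acids beside Scd1, the main isoform of adult liver. Several of these genes are known targets of SREBP-1c, LXR and PPAR-alpha in liver.

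The genes lie on 4 chromosomes of GRCm38. Fads2 (19:10062765-10101746, minus strand) and Fads1 (19:10182888-10196877, plus strand) are neighbours on chromosome 19, 81.1 kb apart, and Scd2 (19:44293674-44306864) and Elovl3 (19:46131897-46135694) lie on the plus strand of the same chromosome. Elovl5 is at 9:77917364-77984519 and Elovl1 at 4:118428093-118432953, both on the plus strand, and Elovl2 at 13:41182381-41220405 on the minus strand. Exons of 2 members overlap a protein-coding gene on the opposite strand, Elovl1 with Cdc20 over 53 bases and Elovl3 with Pitx3 over 10 bases. Those bases are 1.94% and 0.51% of the exons. Upstream sequences from RefSeq (GRCm38.p6) were matched for 4 members by symbol, and 3 are shown because their start lies outside annotated exons. They belong to Elovl5 and Elovl2, which were higher in atorvastatin-treated than in chow-fed mice, and to Elovl1, which passed the test in no comparison. Each is written 5′ to 3′ on the strand of the gene and ends at the base before the first exon, at 9:77917115-77917363 (plus strand), 13:41220406-41220653 (minus strand) and 4:118427843-118428092 (plus strand). Capitals mark matches, on either strand, to CCAAT, to the E-box CACGTG or to the GC box GGGCGG.
Elovl5: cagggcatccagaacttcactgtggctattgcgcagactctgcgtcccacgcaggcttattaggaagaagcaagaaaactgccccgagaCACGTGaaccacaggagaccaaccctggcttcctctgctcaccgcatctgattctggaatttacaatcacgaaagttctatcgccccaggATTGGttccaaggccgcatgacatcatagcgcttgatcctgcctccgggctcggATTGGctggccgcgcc
Elovl2: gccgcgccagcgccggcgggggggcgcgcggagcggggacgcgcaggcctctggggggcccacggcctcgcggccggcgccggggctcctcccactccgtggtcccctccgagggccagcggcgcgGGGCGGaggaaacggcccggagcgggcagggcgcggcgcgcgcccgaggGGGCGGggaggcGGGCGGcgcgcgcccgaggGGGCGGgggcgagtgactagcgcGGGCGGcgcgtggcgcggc
Elovl1: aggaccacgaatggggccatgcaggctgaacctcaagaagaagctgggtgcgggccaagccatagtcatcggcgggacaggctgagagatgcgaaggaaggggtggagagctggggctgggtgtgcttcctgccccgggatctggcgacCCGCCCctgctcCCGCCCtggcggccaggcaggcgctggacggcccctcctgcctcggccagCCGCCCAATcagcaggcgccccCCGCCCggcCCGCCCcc
Elovl5 held 2 CCAAT matches and 1 CACGTG match, whereas Elovl2 held 5 GGGCGG matches and none of the other motifs. Elovl1 held 1 CCAAT match, which overlaps a GGGCGG match, and 5 GGGCGG matches in all. The sterol-element-type motif TCACNCCAC was matched in none of these windows. Among 32851 windows of 250 bases before gene starts, 33.8% held CCAAT, 6.02% held CACGTG, 32.7% held GGGCGG and 1.05% held TCACNCCAC. A match is a description of letters and not a binding site.

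Libraries held 15661381 to 36224054 counts on genes. CPM are counts scaled to the library total after multiplying that total by a factor per library (TMM). The factors ranged from 0.8437 to 0.9212 in chow-fed, 0.9149 to 1.217 in WTD-fed and 0.8902 to 1.11 in atorvastatin-treated mice. Comparisons of CPM between groups rest on these factors. In 8 libraries (3 chow, 4 WTD and 1 atorvastatin) over 20% of the genes at 1 to 2 CPM in their group had no count. These libraries matter most for Elovl3, the weakest member. Markers of liver cells moved with the groups. The test described below called 33.5% of all tested genes on WTD compared to chow and 7.10% with atorvastatin compared to WTD. All 10 hepatocyte markers fell on WTD compared to chow (median log2 fold change -0.91), and 8 of 10 rose with atorvastatin compared to WTD (median 0.47). Macrophage markers rose on WTD in 9 of 10 cases (median 2.31), and with atorvastatin compared to WTD 7 fell and 1 rose (median -0.55). Summed over the list, hepatocyte markers ranged from 110900 to 159900 CPM in chow-fed, 51750 to 105200 in WTD-fed and 61400 to 127500 in atorvastatin-treated mice, and macrophage markers from 472 to 756.5, 2544 to 4643 and 1904 to 3133 CPM. Fewer cells of a type and less RNA per cell cannot be told apart in bulk tissue.

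Each mouse was also placed between the means of both WTD-fed groups over all tested genes other than elongases, desaturases and the genes of their reaction cycle, with 0 for the mean of the other WTD-fed and 1 for the mean of the other atorvastatin-treated mice. The library labelled WTD Gen#20 lay at 1.07, while the other 15 WTD-fed mice lay between -0.26 and 0.69. The 10 chow-fed mice, which had no atorvastatin, lay between 1.07 and 1.54 on the same scale. A position near 1 is therefore not particular to mice given the drug. In the atorvastatin group, the levels of Fads1, Fads2 and Elovl2 left a gap between a lower 5 and an upper 11 mice, as given below. The lower 5 (Gen#22, Gen#23, Gen#24, Gen#25 and Gen#28) had positions between 0.19 and 0.62, and the other 11 between 0.78 and 1.22. These sets follow the gap in the members, so that gap is no separate support for the split. Mice were group-housed and atorvastatin was mixed into the food, and the cage of each mouse is not given in the sources used here. Whether the group labels and the drug intake of Gen#20 and of these 5 mice were as recorded could not be checked. Results that rest on Gen#20 are given with and without it. No fit was made without the 5 mice, since dropping treated mice for their resemblance to untreated ones would select samples by their outcome. Leaving out Gen#20, which was singled out by its resemblance to treated mice, carries the same selection. Values without Gen#20 are therefore a description of how far results rest on it.

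On WTD compared to chow, 4 of the 7 members changed, with Scd2 and Elovl5 higher and Fads1 and Elovl3 lower. The size ranged from a rise of 2.86 for Scd2 to a fall of 3.58 for Elovl3 on the log2 scale. The test was the quasi-likelihood test of edgeR at an adjusted p under 0.01, which called 33.5% of all tested genes in this comparison. Atorvastatin compared to WTD raised 2 of the 7 members, Fads1 and Elovl2, where 7.10% of all tested genes were called. Compared to chow, atorvastatin-treated mice had 4 members higher (Fads2, Elovl2, Elovl5 and Scd2) and none lower in edgeR, where 25.0% of all tested genes were called. The median log2 fold change over the 7 members was 0.02, 0.46 and 0.53 in these comparisons, beside 0.03, 0.00 and 0.04 over all tested genes. The last comparison shares its mice with the other two, so the counts do not add up as separate evidence.

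**Figure D1:**
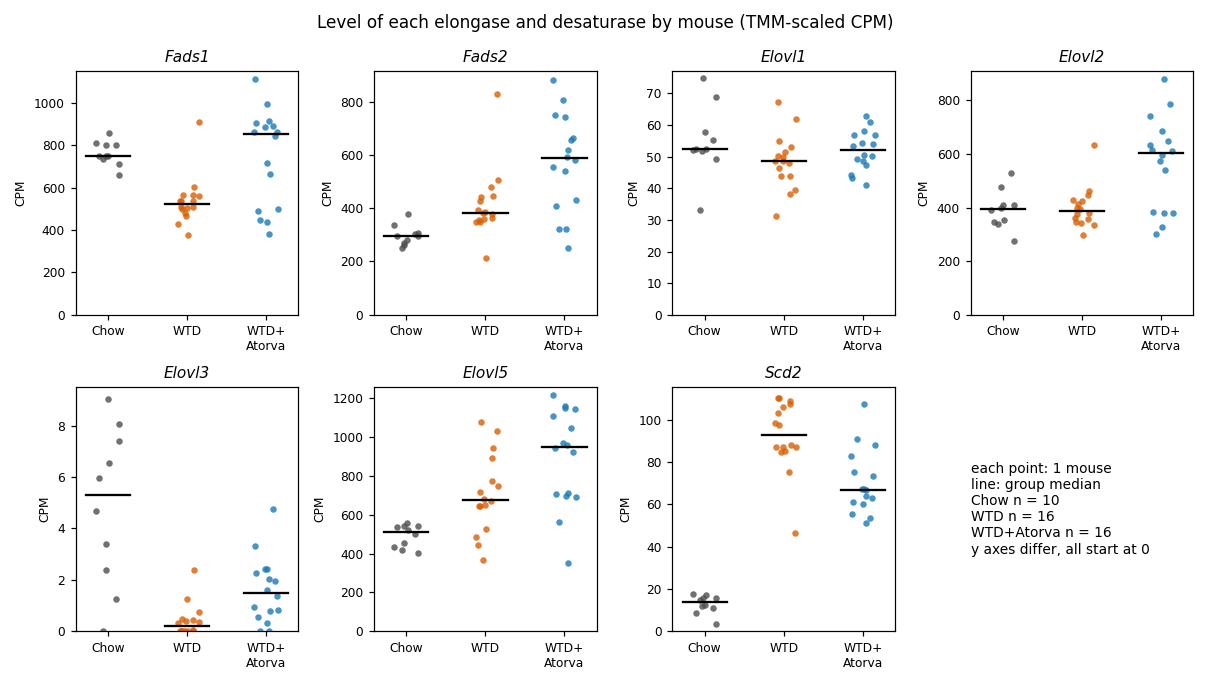
CPM of each of the 7 genes (y axes, linear, starting at 0) in each mouse of the chow (n = 10), WTD (n = 16) and WTD with atorvastatin (n = 16) groups, with lines at the group medians. Scd2 in WTD-fed mice lies above every chow-fed mouse, and Fads1, Fads2 and Elovl2 in atorvastatin-treated mice fall into a lower set of 5 and an upper set of 11 mice.

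Fads2 encodes the desaturase that starts the conversion of essential fatty acids. In chow-fed mice it ranged from 251 to 377 CPM with a median of 295. WTD-fed mice ranged from 212 to 827 CPM with a median of 383, and atorvastatin-treated mice from 249.8 to 882 with a median of 587. Thus 9 of 16 WTD-fed and 13 of 16 atorvastatin-treated mice lay above every chow-fed mouse, and the groups overlapped. The log2 fold change on WTD was 0.48 (SE 0.16), and its adjusted p of 0.0137 in edgeR missed the threshold. This value passed in DESeq2 (0.52, adjusted p = 0.00362) and without the WTD-fed mouse Gen#2 or the atorvastatin-treated mouse Gen#28 (edgeR, adjusted p = 0.00488 and 0.00675). In edgeR it also passed under RLE scaling, with at least 10 counts in every mouse and in a fit of these groups alone (adjusted p = 0.00644, 0.00395 and 0.00169). It did not pass in limma-voom (0.32, adjusted p = 0.0621) or without the 8 libraries that missed many weak genes (edgeR, 0.45, adjusted p = 0.0818). With a score of circadian clock genes in the model it was 0.28 (edgeR, adjusted p = 0.181). Between both WTD-fed groups the log2 fold change was 0.45 (SE 0.14, adjusted p = 0.0236), which also missed, although limma-voom called it (0.65, adjusted p = 8.83e-06). Gen#20 was the highest WTD-fed mouse, and without it this value was 0.55 (SE 0.13) with an adjusted p of 0.0015. Leaving out Gen#22 or Gen#28 also let it pass (edgeR, adjusted p = 0.00974 and 0.00487). Compared to chow, Fads2 rose by 0.94 with atorvastatin (SE 0.17, adjusted p = 1.29e-05).

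Fads1 encodes the desaturase that completes arachidonic and eicosapentaenoic acid. It was 763 ± 56.2 CPM in chow-fed (SD, n = 10), 537 ± 114 in WTD-fed (SD, n = 16) and 745 ± 228 in atorvastatin-treated mice (SD, n = 16). The lowest, median and highest mouse were 660.3, 749 and 856 CPM on chow, 378, 522 and 910.0 on WTD, and 380.4, 853 and 1115 with atorvastatin. Here 15 of 16 WTD-fed mice lay below every chow-fed mouse, and the exception, Gen#20, lay above all of them. Fads1 fell by 0.51 on WTD (log2, SE 0.13, adjusted p = 0.00131), and without Gen#20 it fell by 0.57 (adjusted p = 0.000126). Without the 8 libraries that missed many weak genes the value was -0.52 (adjusted p = 0.012) and did not pass. Atorvastatin compared to WTD raised it by 0.47 (SE 0.12, adjusted p = 0.00371), and without Gen#20 by 0.54 (adjusted p = 0.000284). This call was lost without those 8 libraries (0.44, adjusted p = 0.0336), with the clock score in the model (0.42, adjusted p = 0.012) and in a fit of both WTD-fed groups alone (0.46, adjusted p = 0.0103). Between atorvastatin and chow the difference of -0.03 (SE 0.13, adjusted p = 0.874) did not pass, and its sign turned when Gen#22, Gen#23 or Gen#28 was left out.

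Within the atorvastatin group, the values of Fads1 left a gap, with the 5 mice named above at 380.4 to 500.5 CPM and the other 11 at 666 to 1115. The first set lay within the range of the 15 WTD-fed mice other than Gen#20, which was 378 to 604 CPM. Fads2 had the same gap at 249.8 to 431 against 540.5 to 882 CPM, and Elovl2 at 301 to 384 against 540.3 to 881. These sets are described from the values and were not tested against each other.

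**Figure D2:**
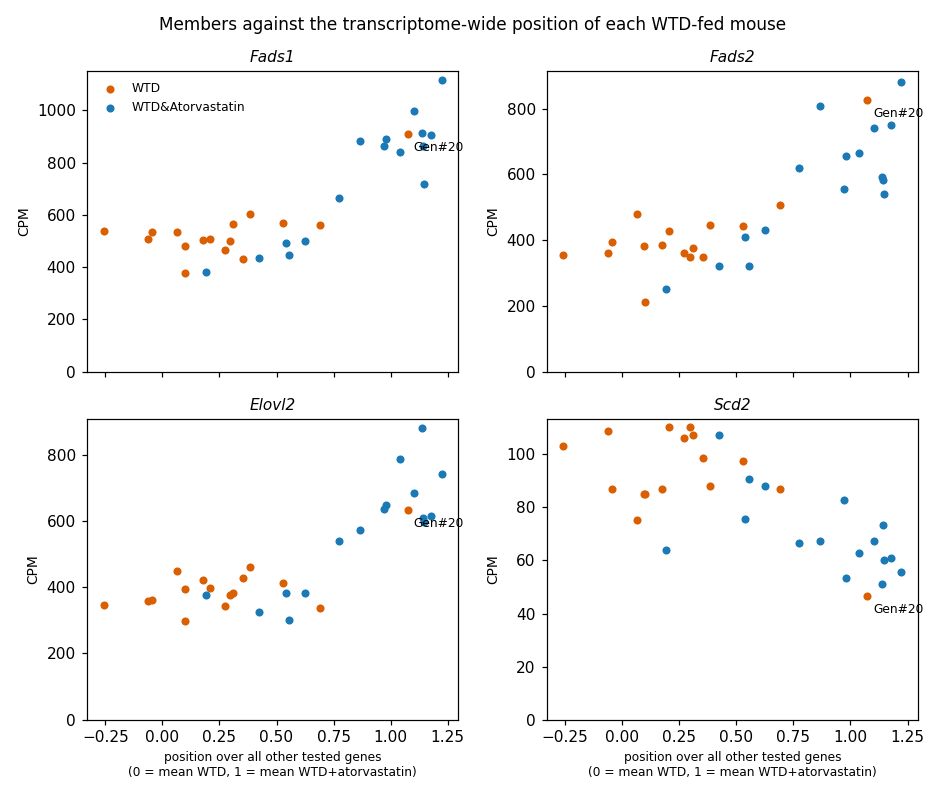
CPM of Fads1, Fads2, Elovl2 and Scd2 (y axes, linear) against the position of each WTD-fed mouse between the means of both WTD-fed groups over the other tested genes (x axes), with 1 point per mouse. Gen#20, labelled WTD, sits at 1.07 among the upper 11 atorvastatin-treated mice, with 910.0 CPM of Fads1 and 46.5 CPM of Scd2.

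Fads1 and Fads2 did not change alike, although they followed each other between mice of the WTD group. Their Pearson r there was 0.91, and 0.61 without Gen#20 and Gen#2. Between chow-fed mice r was 0.41 and did not pass (permutation test, adjusted p = 0.396). There r was 0.35 without AZ#9 and AZ#2, and 0.85 without the 3 chow-fed libraries that missed many weak genes, neither of which was tested. The log2 ratio of Fads1 to Fads2 counts within a mouse ranged from 1.10 to 1.62 in chow-fed (median 1.37), from 0.14 to 0.83 in WTD-fed (median 0.38) and from 0.11 to 0.64 in atorvastatin-treated mice (median 0.42). No mouse on WTD, with or without atorvastatin, reached the lowest chow-fed mouse. The ratio was lower on WTD than on chow by 0.97 (95% confidence interval of the difference -1.10 to -0.83, permutation test, p = 1e-05, the smallest the permutations can give, adjusted p = 7.5e-05 over 15 ratio comparisons). With atorvastatin compared to WTD the mean difference was -0.00 (95% confidence interval -0.13 to 0.12, permutation p = 0.96). A ratio within a library does not depend on how libraries are scaled, and it shows unequal change rather than which gene changed. Without Gen#20 the difference between WTD and chow was -0.95.

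**Figure D3:**
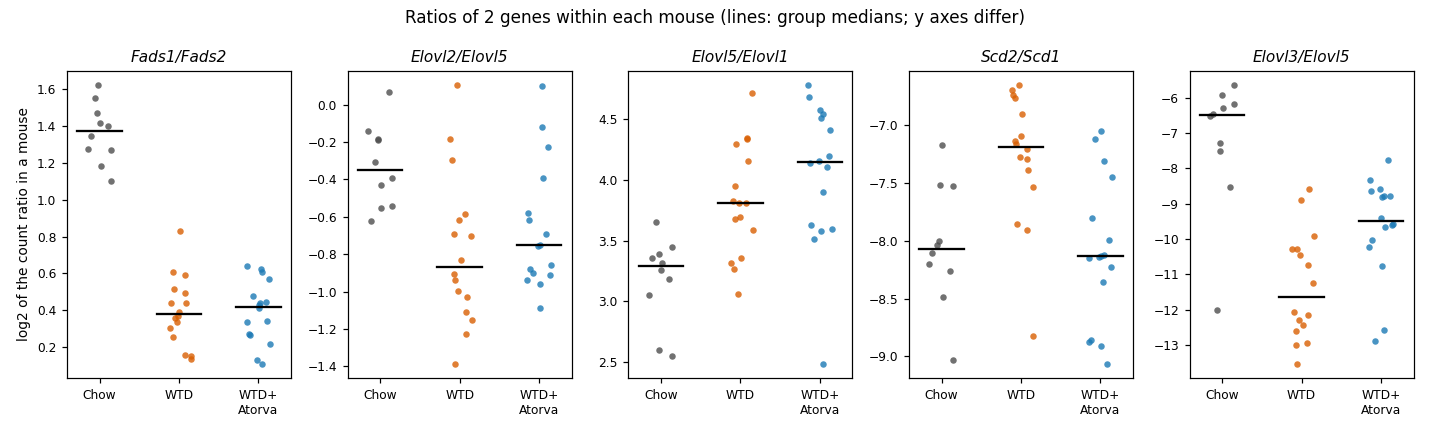
Log2 ratio of the counts of 2 genes within each mouse (y axes, which differ) for Fads1/Fads2, Elovl2/Elovl5, Elovl5/Elovl1, Scd2/Scd1 and Elovl3/Elovl5 in the 3 groups, with lines at the medians. Fads1/Fads2 in the 10 chow-fed mice (1.10 and above) lies above all 32 mice on WTD (0.83 and below).

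Elovl5, the elongase that acts between both desaturases, ranged from 404 to 555 CPM in chow-fed mice (median 512). It ranged from 366 to 1078 CPM in WTD-fed (median 678) and from 352 to 1216 in atorvastatin-treated mice (median 950.5). All but 1 of the 16 atorvastatin-treated mice, and 12 of 16 WTD-fed mice, lay above every chow-fed mouse. Elovl5 rose by 0.53 on WTD (log2, SE 0.15, adjusted p = 0.00493), a call that was lost when the chow-fed mouse AZ#2 or AZ#5 was left out (adjusted p = 0.011 and 0.0101). Atorvastatin-treated mice had 0.87 more than chow-fed mice (SE 0.16, adjusted p = 1.86e-05), whereas the difference of 0.34 from WTD did not pass (SE 0.13, adjusted p = 0.085), although it did in limma-voom (0.43, adjusted p = 0.0012).

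Elovl2, the elongase of the steps toward docosahexaenoic acid, had nearly the same level on chow (394 ± 71.4 CPM, SD, n = 10) and WTD (400.0 ± 76.4, SD, n = 16). Mice ranged from 277 to 528 CPM on chow and from 297 to 634 on WTD, and the highest WTD-fed mouse was Gen#20. The log2 difference was 0.02 (SE 0.13, adjusted p = 0.91) and changed sign between settings. With atorvastatin the mice ranged from 301 to 881 CPM (median 604), and 11 of 16 lay above every chow-fed mouse. Elovl2 rose by 0.51 with atorvastatin compared to WTD (SE 0.12, adjusted p = 0.00216) and by 0.53 compared to chow (SE 0.14, adjusted p = 0.00178). Without the 8 libraries that missed many weak genes both calls were lost (0.48, adjusted p = 0.0185, and 0.43, adjusted p = 0.0358). The call against chow was also lost with the clock score (0.40, adjusted p = 0.0593).

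The log2 ratio of Elovl2 to Elovl5 within a mouse was -0.33 ± 0.22 on chow (SD, n = 10) and -0.78 ± 0.40 on WTD (SD, n = 16). This difference of -0.45 passed (95% confidence interval -0.69 to -0.21, permutation test, adjusted p = 0.00627), although the groups overlapped. With atorvastatin the ratio was -0.66 ± 0.34 (SD, n = 16), which did not differ detectably from WTD (0.12, 95% confidence interval -0.13 to 0.38, permutation test, adjusted p = 0.412).

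Elovl1, which makes very long saturated chains found in sphingolipids, passed the test in no comparison. Its lowest, median and highest mouse were 33.2, 52.3 and 74.9 CPM on chow, 31.3, 48.6 and 67.3 on WTD, and 41.1, 51.9 and 62.9 with atorvastatin. The log2 differences were -0.17 (SE 0.10) on WTD compared to chow, 0.10 (SE 0.09) with atorvastatin compared to WTD and -0.07 (SE 0.10) with atorvastatin compared to chow, the last with the opposite sign (0.05) when the clock score was in the model. The ratio of Elovl5 to Elovl1 within a mouse exceeded that of chow by 0.64 on WTD (95% confidence interval 0.33 to 0.96, permutation test, adjusted p = 0.00208) and by 0.87 with atorvastatin (0.50 to 1.23, permutation test, adjusted p = 0.00154).

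Elovl3, whose level in liver is known to follow the time of day and sex hormones, was the weakest member. It had a median of 108 counts in chow-fed, 4.5 in WTD-fed and 27 in atorvastatin-treated libraries. On the CPM scale the lowest, median and highest mouse were 0, 5.32 and 9.05 on chow, 0, 0.186 and 2.37 on WTD, and 0, 1.48 and 4.74 with atorvastatin. No count was found in 1 chow-fed, 7 WTD-fed and 2 atorvastatin-treated mice, and 5 of these 10 libraries were among the 8 that missed many weak genes. No WTD-fed and no atorvastatin-treated mouse reached the median of chow. Elovl3 fell by 3.58 on WTD (log2, SE 0.77, adjusted p = 0.000116), and the call held without those 8 libraries (-3.34, adjusted p = 0.000181). The difference of 1.97 between atorvastatin and WTD (SE 0.69, adjusted p = 0.0477) and that of -1.61 from chow (SE 0.73, adjusted p = 0.0823) did not pass in edgeR, although the latter did in limma-voom (-1.76, adjusted p = 0.00519). Without those libraries the former was 1.35 (adjusted p = 0.149), while without the highest WTD-fed mouse, Gen#5, it was 2.53 and passed (adjusted p = 0.00938). The score of 17 clock genes ranged from -5.09 to 1.00 on chow, -2.97 to 4.21 on WTD and -1.40 to 5.18 with atorvastatin. With it in the model the value of Elovl3 on WTD was -3.61 (edgeR, adjusted p = 0.000287). The score moved with the groups (medians -3.96, -0.68 and 1.08), and 7 of its 17 genes were called on WTD compared to chow. Time of day and group therefore cannot be told apart by it, and the part of time of day was not tested.

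Scd2 had the largest rise of the members. Chow-fed mice ranged from 3.13 to 17.5 CPM (median 13.6), WTD-fed mice from 46.5 to 110.3 (median 92.8) and atorvastatin-treated mice from 51.0 to 107 (median 66.9). Every mouse on WTD, with or without atorvastatin, lay above every chow-fed mouse. Scd2 was the only member whose groups did not overlap, where this held for 5.83% of all tested genes between WTD and chow and for 4.37% between atorvastatin and chow. None of the 7 members separated atorvastatin from WTD, where 0.00642% of all tested genes did. Scd2 rose by 2.86 on WTD (log2, SE 0.17, adjusted p = 1.87e-18) and by 2.46 with atorvastatin compared to chow (SE 0.17, adjusted p = 4.68e-16). Between both WTD-fed groups it was the only member with a negative value, -0.40 (SE 0.13, adjusted p = 0.0347), which missed the threshold. Gen#20 was the lowest WTD-fed mouse at 46.5 CPM, and without it the value was -0.44 (SE 0.12) and passed (adjusted p = 0.00793). It also passed in DESeq2 (-0.44, adjusted p = 0.00783), in limma-voom (-0.52, adjusted p = 6.05e-07) and without the chow-fed mouse AZ#2, which bears on the shared spread (edgeR, -0.40, adjusted p = 0.00418).

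Scd1, the related gene that dominates in adult liver, was far more abundant. Chow-fed mice had 3328 ± 1397 CPM (SD, n = 10), WTD-fed mice 14652 ± 4088 (SD, n = 16) and atorvastatin-treated mice 19772 ± 5930 (SD, n = 16). It rose by 2.14 on WTD (log2, SE 0.20, adjusted p = 6.99e-12), while its difference of 0.43 between atorvastatin and WTD did not pass (adjusted p = 0.0718). The log2 ratio of Scd2 to Scd1 counts within a mouse was -8.03 ± 0.53 in chow-fed mice (SD, n = 10), -7.27 ± 0.56 in WTD-fed mice (SD, n = 16) and -8.10 ± 0.64 in atorvastatin-treated mice (SD, n = 16). WTD raised it by 0.76 over chow (permutation test, adjusted p = 0.00478) and lower with atorvastatin than on WTD by 0.82 (95% confidence interval -1.24 to -0.41, permutation test, adjusted p = 0.00201). Between atorvastatin and chow it did not differ detectably (-0.06, 95% confidence interval -0.52 to 0.39). At this difference in level, reads of Scd1 assigned to Scd2 would weigh on Scd2, and how many there were was not tested.

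**Figure D4:**
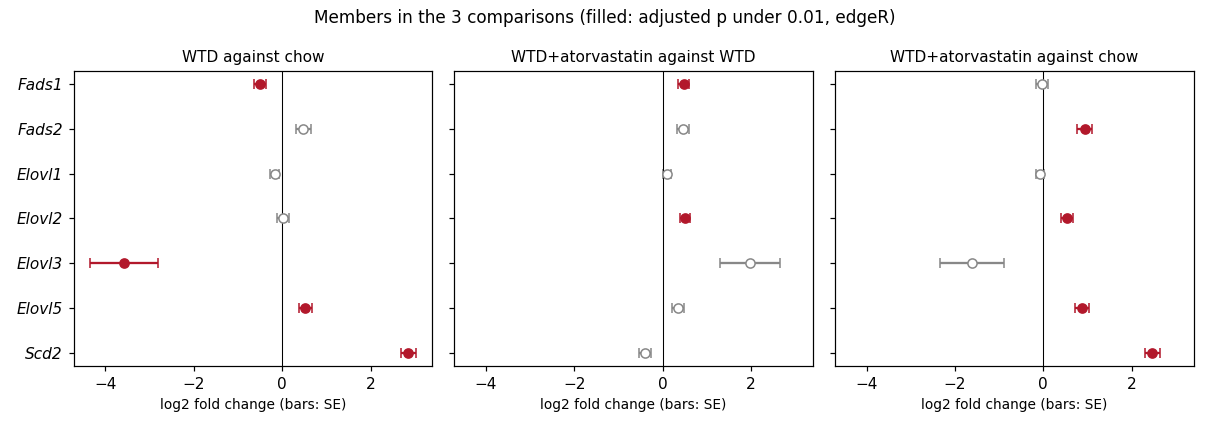
Log2 fold change (x axes, with bars of 1 SE) of the 7 members in the 3 comparisons, filled where the adjusted p of edgeR was under 0.01. The filled points are 4, 2 and 4 of 7, and the widest bars are those of Elovl3 (SE 0.77, 0.69 and 0.73).

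Because hepatocyte markers moved with the groups, each member was also set against the mean log2 CPM of the 10 hepatocyte markers in the same mouse, a scale chosen after seeing the data. On this scale Fads1 in WTD-fed mice exceeded chow by 0.47 (95% confidence interval 0.38 to 0.56), the opposite direction to its fall in CPM. Elovl2 was higher by 1.02 (0.87 to 1.17) and Elovl1 by 0.83 (0.55 to 1.11), where CPM showed no call. Fads2, Elovl5 and Scd2 were higher by 1.43, 1.47 and 3.95, and Elovl3 stayed lower (-2.59, 95% confidence interval -4.07 to -1.10). Between atorvastatin and WTD the differences of Fads1, Fads2, Elovl2 and Elovl5 were -0.04, -0.04, -0.01 and -0.13 on this scale, and all 4 intervals held 0. Scd2 remained lower with atorvastatin (-0.86, 95% confidence interval -1.22 to -0.51), Elovl1 was lower (-0.36, -0.63 to -0.09) and Elovl3 higher (1.58, 0.52 to 2.64). The part of hepatocyte content in the CPM differences was not tested. Members were not set against markers of other cells. Macrophage, cholangiocyte and stellate markers had medians of 2.31, 1.99 and 1.43 on WTD and -0.55, -0.69 and -0.40 with atorvastatin compared to WTD, the signs of Scd2. Those of endothelial markers were 0.21 and 0.11. Which cells hold Scd2, and their part in its changes and in Scd2/Scd1, was not tested.

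Levels of different genes were compared as CPM per kilobase of exon. The length is that of all annotated exons of a gene together, 4812 bases for Fads1 and 3295 for Fads2. Which transcripts the liver used was not examined, and the tests below take the lengths as given. In chow-fed mice the order of the mean levels was Fads1 (158), Elovl5 (139), Elovl2 (99.3), Fads2 (90.3), Elovl1 (20.1), Elovl3 (2.47) and Scd2 (2.33). Elovl2 and Fads2, and Elovl3 and Scd2, did not differ within mice beyond their spread (exact permutation of signs over 10 mice, adjusted p = 0.299 and 0.641 over 18 pairs). On WTD the order became Elovl5 (201), Fads2 (126), Fads1 (112), Elovl2 (101), Elovl1 (17.8), Scd2 (17.0) and Elovl3 (0.202). Elovl1 and Scd2 did not differ there (exact permutation, adjusted p = 0.431), and Fads2 exceeded Fads1 in 13 of 16 mice (exact permutation, adjusted p = 0.0101). In counts not divided by length, Fads1 exceeded Fads2 in every WTD-fed mouse (log2 ratio 0.14 to 0.83), so the order of these genes rests on the lengths. With atorvastatin the order was the same, from Elovl5 (255) to Elovl3 (0.807), and Elovl1 exceeded Scd2 in 16 of 16 mice. Fads1 and Elovl2 did not differ there beyond their spread (higher Fads1 in 12 of 16 mice, exact permutation, adjusted p = 0.0547).

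Other elongases and desaturases from a list of 8 genes were tested where counts allowed, which was the case for 5. Besides Scd1, Elovl7 rose on WTD compared to chow (3.05, SE 0.44, adjusted p = 7.96e-08) and Fads6, a less studied desaturase, fell (-0.31, SE 0.09, adjusted p = 0.00293). Elovl6, which lengthens palmitate to stearate, the substrate of the Scd enzymes, rose with atorvastatin compared to WTD (1.15, SE 0.27, adjusted p = 0.00309). It was the only call among the 5 in edgeR, which called 1106 of 15574 tested genes in this comparison, whereas limma-voom called all 5 and 3145 of 15574. It was 160 ± 108 CPM on WTD and 354 ± 208 with atorvastatin (SD, n = 16 each), and it lay at 117 ± 27.4 on chow (SD, n = 10). Fads3 was called by edgeR in no comparison (0.61 on WTD compared to chow, adjusted p = 0.0791, and -0.41 with atorvastatin compared to WTD, adjusted p = 0.323), and Scd3, Scd4 and Elovl4 had too few counts to test.

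The remaining steps of elongation and the electron supply of the desaturases were covered by a list of 9 genes, all tested. On WTD 5 fell and 1 rose compared to chow (median log2 fold change -0.34), where 33.5% of all tested genes were called. Among those that fell were Cyb5a and Cyb5b, the cytochromes that pass electrons to the desaturases (-0.80, SE 0.08, and -0.85, SE 0.10), and the one that rose was Hacd4, a dehydratase of the elongation cycle (2.95, SE 0.26, adjusted p = 9.82e-14). With atorvastatin compared to WTD, where 7.10% of all tested genes were called, 3 of 9 rose and none fell. They were Cyb5b (0.50), Tecr, the reductase that ends the cycle (0.47), and Cyb5r3, the reductase that feeds the cytochromes (0.41). In atorvastatin-treated mice compared to chow 4 were lower and 1 higher, where 25.0% of all tested genes were called.

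Among 14 regulators of these genes, 8 fell and 1 rose on WTD compared to chow, where 33.5% of all tested genes were called. The one that rose was Srebf1, which encodes the SREBP-1 factors of fatty acid synthesis (0.99, SE 0.17, adjusted p = 3.64e-06). Srebf2, the factor of sterol synthesis, fell by 0.88 (SE 0.08), Scap, the escort of both SREBP proteins, by 1.05 (SE 0.13), Insig1, their retention protein, by 1.36 (SE 0.24), Mlxipl, which encodes the carbohydrate-responsive factor ChREBP, by 1.04 (SE 0.13) and Ppara by 0.62 (SE 0.17). With atorvastatin compared to WTD, where 7.10% of all tested genes were called, 5 of the 14 rose and none fell. They were Insig1 (0.96, SE 0.22), Scap (0.67, SE 0.11), Mlxipl (0.56, SE 0.12), Srebf2 (0.33, SE 0.07) and Hnf4a (0.33, SE 0.07). Srebf1 (0.42, adjusted p = 0.0384), Ppara (0.29, adjusted p = 0.241) and Nr1h3, which encodes LXR-alpha (0.05, adjusted p = 0.754), did not pass. Compared to chow, Srebf1 was higher by 1.41 (SE 0.17, adjusted p = 6.68e-09) while Srebf2 (-0.55) and Mlxipl (-0.49) were lower. Regulators and genes of the elongation steps were not set against the hepatocyte markers. Those markers had medians of -0.91 on WTD compared to chow and 0.47 with atorvastatin compared to WTD. The part of hepatocyte content in the changes of these genes was not tested.

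**Figure D5:**
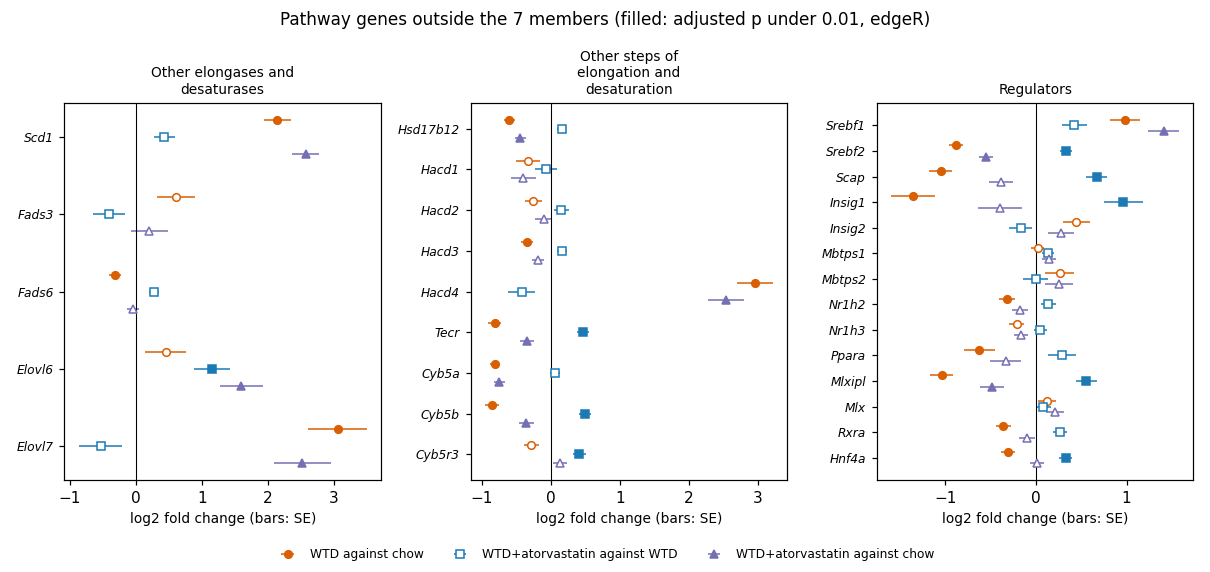
Log2 fold change (x axes, with bars of 1 SE) of the other elongases and desaturases (5 tested), the other steps of elongation and desaturation (9) and the regulators (14) in the 3 comparisons, with filled symbols for an adjusted p of edgeR under 0.01. Insig1, Scap, Srebf2 and Mlxipl lie below 0 for WTD against chow and above 0 for atorvastatin against WTD.

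Between mice of the same group, several members varied together. In WTD-fed mice Fads1 and Fads2 had a Pearson r of 0.91 (permutation test, p = 5e-05, adjusted p = 0.000525 over 63 relations) and a Spearman rho of 0.74 (permutation test, p = 0.00179, adjusted p = 0.0188) over 16 mice. Without Gen#20 and Gen#2, the mice farthest from the median of Fads1, r was 0.61. Fads1 and Elovl5 kept their relation without those mice (r 0.63 with them, permutation p = 0.00783, rho 0.71, permutation p = 0.00297, and r 0.63 without). For Fads1 and Elovl2 r fell from 0.77 to 0.09, so that relation rests on those mice. In chow-fed mice no pair passed after adjustment. The atorvastatin group fell into separate sets, so no r over the whole group is given. Within its upper 11 mice Fads1 and Fads2 had r 0.66 and rho 0.60. These mice lie above the gap in Fads1, Fads2 and Elovl2 themselves, which limits the spread of these members. No p value is given for them, since the set was not chosen independently of the values.

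Deviations from the group mean over all 42 mice were used to find the genes most like each member among 10930 genes with at least 100 counts on average. They are a description, share the scaling of the libraries and take in the spread between both sets of atorvastatin-treated mice. For Fads1 these were Slc27a5 (r 0.94), Fads2 (0.91) and Papss2 (0.91), and for Fads2 they were Fads1 (0.91), Tmbim6 (0.90) and Abcd3 (0.88). Elovl2 came closest to Alb (0.89), Slc19a2 (0.86) and Cyp2c68 (0.85), and Elovl5 to Acsl5 (0.88), Adipor2 (0.88) and Acacb (0.87). Scd2 came closest to Ccdc3 (0.84), Clmp (0.84) and Thbs1 (0.83), where Spearman rho was lower (0.61, 0.64 and 0.57). Elovl1 (Rtl8a 0.74, Acer2 0.73, Cxcl16 0.72) and Elovl3 (St3gal5 0.73, Zfand1 0.70, Coq6 0.69) had weaker matches by r. Their rho was 0.56, 0.42 and 0.59 for Elovl1, and 0.66, 0.60 and 0.59 for Elovl3, which is near that of Scd2.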

How the data were processed

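Liver RNA of 42 mice (10, 16 and 16 per group) was sequenced as strand-specific poly(A) libraries. The authors trimmed reads with Trimmomatic, aligned them to GRCm38 with STAR 2.5 and counted them with HTSeq 0.6.1p1, and the deposited values are raw counts per gene. Reads in no gene (2.28%), ambiguous (5.95%) or aligned to several places (4.68% on average) were left out. Symbols, positions and exon lengths came from GENCODE M21, a later release than the vM19 annotation of the authors. Counts were filtered (filterByExpr, minimum count 10, total 15), scaled by TMM and tested with edgeR 4.0.16 in R 4.3.3, in a single model of the 3 groups with robust estimation. P values were adjusted by Benjamini-Hochberg over 15574 genes and called under 0.01, and ratio and correlation tests under 0.05. Alternatives used DESeq2 1.42.0 and limma 3.58.1. Within-mouse ratios (2 added to each count) and correlations were tested by two-sided permutation with 100000 resamples, and neighbours in level by exact sign permutation. The weak-gene share and clock score (first principal component of 17 clock genes) served as covariates in alternatives. Methods were tested on simulated data. The members and gene lists were chosen with earlier results of these data known. Names were taken from the 7 members, the tested other family genes, 7 regulators listed by name, and per list the 3 called genes with the smallest p, not all of which are printed. Mice were separate animals, and caging is not given.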

Additional observations from a re-analysis of the deposited data

Results flagged for a closer look

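In chow-fed mice the log2 ratio of Elovl3 to Elovl5 counts was -12.02 in AZ#5, and the nearest of the other 9 mice lay at -8.51. This gap was 0.548 of the range of the group, above the critical value of 0.466 for 10 values. AZ#5 had no count of Elovl3, and in its library 46.0% of the genes at 1 to 2 CPM in the chow group had no count. Of 12 values tested in the chow group this was the only one, and chance flags about 1 in 20 such groups.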

How the results depend on the processing

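The count of members called on WTD compared to chow was 4 and became 2 where a log2 fold change of 1 was also required. All called genes went from 5224 to 2151 of 15574 with that requirement. The count of members ranged from 3 to 5 when each mouse was left out. The count of 2 with atorvastatin compared to WTD became 5 in limma-voom and at an adjusted p under 0.05, 1 with the clock score, and 0 both without the 8 libraries that missed weak genes and with that fold change. Of all 15574 tested genes, 1106 were called in the main fit, 3145 in limma-voom, 2021 under 0.05, 893 with the clock score and 100 with that fold change. Without the 8 libraries 775 of 15877 were called. The shifts in members are therefore not read as particular to them. Leaving out each mouse gave 2 to 4 members, with 4 only without Gen#20. The count of 4 compared to chow became 1 with that fold change, 5 in limma-voom and 3 without the 8 libraries, with the share of missing weak genes as a covariate or with the clock score, and was 4 whichever mouse was left out. All called genes there were 3893 of 15574 in the main fit, 1288 with that fold change and 4974 in limma-voom. They were 4363 of 15877 without the 8 libraries, 3238 with the share as a covariate and 3184 with the clock score. Elovl2 on WTD compared to chow was -0.0935 in limma-voom, -0.0473 without the 8 libraries and -0.065 with the clock score, and -0.0354 to 0.0777 when each mouse was left out. Fads1 with atorvastatin compared to chow was -0.0829 to 0.0117 when each mouse was left out, and Elovl1 was 0.0469 with the clock score. The Fads1/Fads2 difference between atorvastatin and WTD was 0.0423 as a difference of medians. Without the 8 libraries, Elovl2/Elovl5 between atorvastatin and chow (-0.34, adjusted p = 0.0521, permutation test) and Elovl3/Elovl5 between atorvastatin and WTD (1.18, adjusted p = 0.065) no longer passed. The cause was not tested. Of the genes called between atorvastatin and WTD, 68.2% were higher under TMM and 54.9% under RLE scaling, and limma-voom called 3145 genes against 1106. Among the gene lists, limma-voom raised the count between atorvastatin and WTD from 1 to 5 for the other elongases and desaturases, from 3 to 5 for the elongation cycle and from 2 to 8 for the acyl-CoA list, and without the 8 libraries that of the regulators fell from 5 to 3. Elovl3 could not be fitted with at least 10 counts in every mouse. No paired analysis was possible because mouse numbers are identifiers of different animals and do not link groups. Elovl3 was the only member with libraries at 0 counts. These 10 libraries held 17182002 to 31679397 counts in all, beside 15661381 to 36224054 over the 42 libraries.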

Other observations

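Genes that use or break down the products of these enzymes were examined in further lists. Of all tested genes, 33.5% were called on WTD compared to chow and 7.10% with atorvastatin compared to WTD. On WTD the ceramide (3 of 9) and clock (7 of 17) lists came near the first share. Counts in the lists of this section are therefore not read as a response of a pathway. Among 13 tested genes of acyl-CoA synthesis and phospholipid remodelling, 3 rose and 3 fell on WTD compared to chow. Lpcat2 and Lpcat1, which re-acylate lysophosphatidylcholine, rose by 2.12 (SE 0.16) and 2.07 (SE 0.29), and Acsl1, the main long-chain acyl-CoA synthetase of liver, fell by 1.00 (SE 0.15). With atorvastatin compared to WTD, Acsl5 (0.57, SE 0.10) and Acsl1 (0.49, SE 0.13) rose. In the peroxisomal list of 10 genes, which serves the shortening of very long chains, 6 fell and 1 rose on WTD. Ech1 fell by 1.00 (SE 0.09), Hsd17b4 by 0.51 (SE 0.08) and the transporter Abcd3 by 0.59 (SE 0.10). With atorvastatin compared to WTD, Abcd3 (0.40, SE 0.09) and Abcd2 (0.52, SE 0.12) rose.

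Among 9 tested genes of ceramide synthesis, Sptlc2, a subunit of the first enzyme, rose by 0.72 on WTD (SE 0.09), as did Degs2 (2.79, SE 0.78), while Cers2, the ceramide synthase of very long chains, fell by 0.25 (SE 0.07) and rose by 0.29 (SE 0.06) with atorvastatin compared to WTD. Among 11 tested eicosanoid genes, 3 rose and 2 fell on WTD, where 33.5% of all tested genes were called. Ptgs1, a cyclooxygenase, rose by 0.88 (SE 0.17) and Pla2g4a, which frees arachidonic acid, by 1.48 (SE 0.30), while Ephx2, the soluble epoxide hydrolase, fell by 0.58 (SE 0.10). In edgeR, 0 of them passed with atorvastatin compared to WTD, where 1 of 11 had an unadjusted p under 0.05 and limma-voom called 1.

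Of the other cell type lists, 6 of 6 cholangiocyte and 6 of 10 stellate cell markers rose on WTD compared to chow, with medians of 1.99 and 1.43. Of 8 endothelial markers 2 rose and 3 fell. In edgeR, 0 of 9 lymphocyte markers passed on WTD compared to chow, where 2 had an unadjusted p under 0.05, DESeq2 called 1 and limma-voom 2. Further, of 6 adipocyte markers only Pck1, which hepatocytes also express, could be tested and fell (-0.84, SE 0.18), while Lep had no count in any mouse. Of 17 tested clock genes, 3 rose and 4 fell on WTD, where 33.5% of all tested genes were called. The called clock genes included Nfil3 (-1.54, SE 0.22), Bhlhe40 (1.17, SE 0.18) and Clock (-0.66, SE 0.12). With atorvastatin compared to WTD 0 passed in edgeR, where 4 had an unadjusted p under 0.05 and limma-voom called 5.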
